A study of Mus musculus with 2 samples.

Results

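The interferon-stimulated effector genes are a list of 47 mouse genes whose products act against viruses and intracellular bacteria, and their RNA was compared here between primary macrophages and self-renewing macrophages grown from bone marrow. The list was written by gene family. It holds a type I class of 11 genes (the IFIT, OAS and MX families), a gamma class of 10 genes (the guanylate-binding proteins, GBPs, and the immunity-related GTPases, IRGs) and 26 further genes. Of the 47, 42 genes had a probe with a gene name, out of 22910 genes named on the array. Mx1, Mx2, Tgtp1, Ifitm2 and Ifi203 had no probe paired with them by name and were not analysed here. All 42 gave a signal well above background, 41 of them on both arrays and Ifi44 in primary macrophages only. The list and the contrast of its classes were drawn up with differences between these arrays known, so all counts and medians over the members are descriptions.

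Total RNA was hybridised to Agilent mouse expression arrays with 1 dye, 1 array for each cell type. Both samples came from the bone marrow of C57BL/6 mice, and the labels give males for both. Whole marrow was grown in RPMI1640 medium with fetal calf serum and 100 ng/ml recombinant human M-CSF, the growth factor of macrophages, and no interferon or other stimulus is given for these samples. The primary macrophages were taken at day 5 and the self-renewing macrophages at passage 4, so that time in culture differs together with the cell type. The self-renewing macrophages are a passaged population and not 1 clone. Since neither cell type has a replicate array, no test was made, and the number of arrays limits the precision of each value.

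Signals are given as the background-corrected intensity or as its log2 relative to the array's 75th percentile, which stood at an intensity of 434 in primary and 446 in self-renewing macrophages. A difference is always self-renewing minus primary on that log2 scale, so that 1 log2 unit is a 2-fold change. Probes of the same gene scattered around their gene's difference with an SD of 0.325 log2 over 5077 genes, while repeated spots of a probe had a median SD of 0.043 and 0.047 log2 within an array. Of 8 Y-linked genes, 1 was well above background in primary and 5 in self-renewing macrophages, and Xist was so in primary macrophages only, although the labels give males for both. The part of this in the results below was not tested. All 11 macrophage markers were well above background on both arrays, with a median difference of 0.39, and Csf1r, the M-CSF receptor, stood at 8.04 in primary and 8.42 in self-renewing macrophages. Of the 8 neutrophil markers measured, all were lower in self-renewing macrophages, 7 of them at least 5-fold. Of all 15515 measured genes, 52% were lower and 454 genes were at least 5-fold lower. S100a8, S100a9, Ltf and Ngp were not well above background in self-renewing macrophages. In bulk RNA, fewer cells of a type and less RNA per cell cannot be told apart.

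Interferons are secreted proteins that put neighbouring cells into an antiviral state. Type I interferons such as IFN-β bind the receptor IFNAR1/IFNAR2, and the kinases JAK1 and TYK2 then activate a complex with STAT2 and IRF9 that binds the interferon-stimulated response element (ISRE). Interferon gamma binds IFNGR1/IFNGR2 and acts mainly through the gamma-activated site (GAS). Many genes answer to both, and the class names used here describe the interferon under which a family is best known. Macrophages are a main site of this program, and many of its genes are transcribed at a low level without infection.

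The promoters of several members show the elements that the pathway uses. The windows below are given because they contain the ISRE core (GAAA, then 2 bases of any kind, then GAAA), the GAS core (TTCNNNGAA) or both, and because they stand for the IFIT, OAS, IRG and GBP families and for genes with large and small differences. Both motifs were searched on both strands from 250 bases before to 50 bases after the gene start, in RefSeq promoters of GRCm38.p6. Each is printed 5′ to 3′ on the strand of its gene, with the matched letters in capitals. On the opposite strand the ISRE core reads TTTC, 2 bases, TTTC.
Ifit3, chr19:34583353-34583436, plus strand: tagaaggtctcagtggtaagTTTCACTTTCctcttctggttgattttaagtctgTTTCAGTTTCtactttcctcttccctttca
Ifit1, chr19:34640765-34640833, plus strand: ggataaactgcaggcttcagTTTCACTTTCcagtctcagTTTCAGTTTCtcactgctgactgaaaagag
Isg15, chr4:156200855-156200916, minus strand: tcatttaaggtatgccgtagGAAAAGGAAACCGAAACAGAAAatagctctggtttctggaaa
Bst2, chr8:71537567-71537628, minus strand: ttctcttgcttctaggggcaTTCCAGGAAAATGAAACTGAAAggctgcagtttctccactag
Igtp, chr11:58199491-58199551, plus strand: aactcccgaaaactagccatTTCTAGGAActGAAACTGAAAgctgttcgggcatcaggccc
Irgm2, chr11:58214882-58214942, plus strand: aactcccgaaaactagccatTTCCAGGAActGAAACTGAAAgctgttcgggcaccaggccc
Gbp2, chr3:142620584-142620633, plus strand: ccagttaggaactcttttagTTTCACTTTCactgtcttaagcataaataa
Oas1a, chr5:120907526-120907565, minus strand: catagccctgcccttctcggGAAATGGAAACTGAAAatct
Rsad2, chr12:26456543-26456592, minus strand: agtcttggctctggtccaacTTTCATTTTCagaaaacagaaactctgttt

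In Ifit3 and Ifit1 the ISRE core occurs 2 times, in Isg15 3 times in overlapping register, and in Bst2 2 overlapping copies run into a GAS core. Igtp and Irgm2, neighbours on chromosome 11, carry a GAS core just before an ISRE core in nearly the same letters. The ISRE core was found in 23 of the 35 members with a promoter entry (65.7%), against 3.99% of 27025 genes. The GAS core was found in 13 members (37.1%), against 9.55% of all genes, and both in 9 members (25.7%), against 0.614%. By class, the ISRE core was present in 5 of 8 type I genes and in 8 of 9 gamma genes, and the GAS core in 2 and 5. A match describes letters and not a bound site.

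Taken over all members, the signal was mostly somewhat higher in self-renewing macrophages, by less than 2-fold for most genes. Of the 42 members measured, 33 were higher and 9 lower, where 48% of all 15515 measured genes were higher and 52% lower. At least 1.5-fold higher were 18 members, against a background of 10.9%, a threshold that was chosen after values had been seen, and 1 was as much lower, against 15.1%. At least 2-fold higher were 6 members (14.3%), against 4.76% of all genes, namely Ifit3, Usp18, Ifit1, Bst2, Ifit2 and Irgm2. Only Ifi44 was at least 2-fold lower, where 8.38% of all genes were, and no difference or bound of a member reached 5-fold in either direction. The members' median was 0.54, with a range from -2.20 to 1.86, and that of all genes -0.02. Of the 11 macrophage markers, 9 were higher as well, with a median of 0.39. The authors' own scaling adds 0.19 to every difference, so that values less than this below 0 change sign, and 38 members were then higher, where 65.3% of all genes were.

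**Figure D1:**
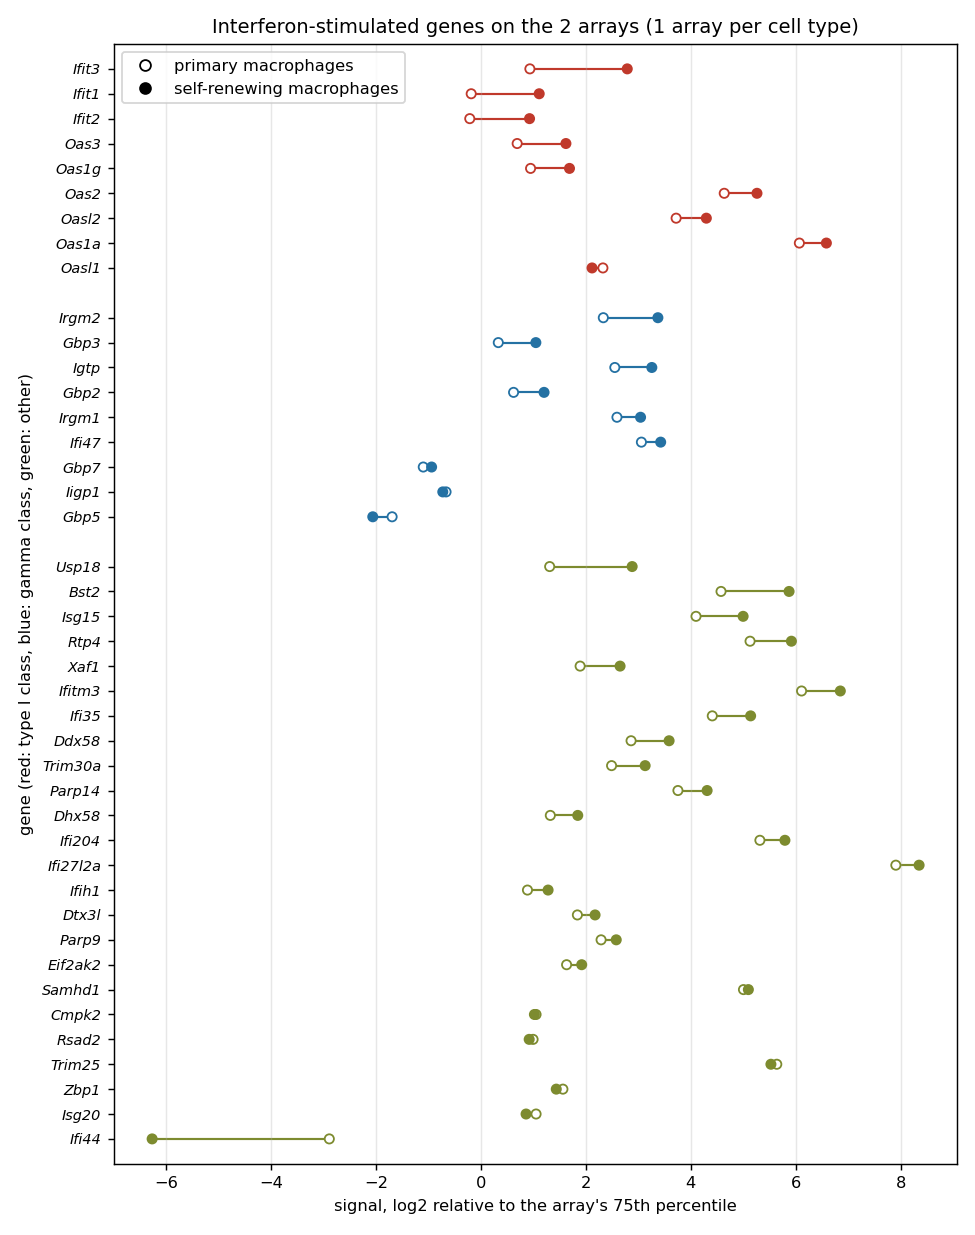
Signal of each measured member (rows, in italics) in primary macrophages (open points) and self-renewing macrophages (filled points), 1 array each, as log2 relative to the array's 75th percentile. Rows are grouped by class and ordered by difference within it, signals compare within a row only, and the filled point of Ifi44 is not well above background. The filled point lies to the right in 33 of 42 rows.

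Since brightness can bear on differences, the members were also read against genes of like signal. In the range that holds the middle of the members, a mean level of 1.05 to 4.42, all 5396 named genes had a median difference of 0.03. Of these, 54.2% were higher, 9.32% at least 1.5-fold and 3.24% at least 2-fold. Of the 20 members in that range, 18 were higher, 9 at least 1.5-fold and 3 at least 2-fold, with a median of 0.57.

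**Figure D2:**
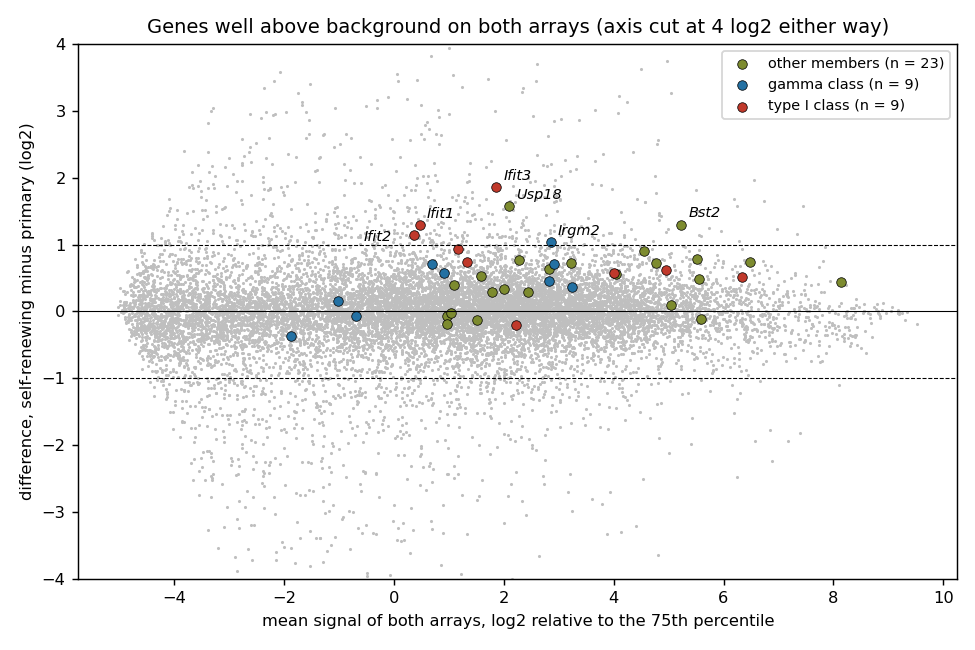
Difference (log2, self-renewing minus primary, vertical axis) against mean signal of both arrays (log2 relative to the 75th percentile, horizontal axis) for genes well above background on both arrays, in grey, with the members in colour by class. Dashed lines mark 2-fold, the axis ends at 4 log2 units either way, and the members lie mostly between 0 and 1, with 6 above the upper line.

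The IFIT family, whose proteins bind viral RNA that lacks the host's cap modifications, stood highest in the type I class. The intensity of Ifit3 was 829 in primary and 3088 in self-renewing macrophages, a difference of 1.86 or 3.62-fold. That of Ifit1 was 382 and 965, 2.46-fold higher, and that of Ifit2 was 375 and 850, 2.20-fold higher. These were the 3 IFIT members, all at least 2-fold higher, against 4.76% of all genes, with a median of 1.30. Among the IFIT relatives outside the list, Ifit3b differed by 2.20 (4.61-fold higher), Ifit1bl1 by 1.30 and Ifit1bl2 by -0.07. Ifit3 and Ifit3b are close in sequence, and how far the probe of each also reads the other was not tested.

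The oligoadenylate synthetases make the second messenger that activates RNase L, which then cuts RNA, and their differences were smaller. Oas3 had an intensity of 701 in primary and 1373 in self-renewing macrophages, 1.90-fold higher. Oas1g followed with 837 and 1440, 1.67-fold higher, and Oas2 with 10804 and 17128, 1.54-fold higher. Oas1a, whose promoter is printed above, was 1.43-fold higher. The OAS-like protein Oasl2 was 1.49-fold higher, while Oasl1, known to restrain translation of IRF7, read 2176 and 1939, a difference of -0.21 with both of its probes at -0.22 and -0.21. In sum 5 of 6 OAS members were higher and none reached 2-fold, with a median of 0.60. Among all genes, 48% were higher and 4.76% at least 2-fold higher. Of 4 further OAS genes measured outside the list, all were higher, by 0.27 to 0.68. Oas1a and Oas1g are close paralogs, for which cross-reading of the probes was likewise not tested.

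In the gamma class the guanylate-binding proteins, large GTPases that attack the vacuoles of intracellular microbes, were spread on both sides of 0. Gbp3 read 547 in primary and 923 in self-renewing macrophages, 1.64-fold higher. Gbp2 read 669 and 1029, a difference of 0.58. Gbp7 differed by 0.16 and Gbp5, which also promotes inflammasome assembly, by -0.37, with intensities of 134 and 107. The family median was 0.37, with 3 of 4 higher, where 48% of all genes were, or 65.3% with the authors' scaling. Among relatives outside the list, Gbp9 was higher by 1.53, and 3 of the 5 GBP relatives measured were lower, with a median of -0.10 that changes sign with the authors' scaling.

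The immunity-related GTPases, which work with the GBPs on such vacuoles and in autophagy, held the highest gamma gene. Irgm2 read 2188 in primary and 4627 in self-renewing macrophages, 2.06-fold higher, or 0.92 log2 with normexp background correction, where no gamma gene reached 2-fold. Its neighbour Igtp read 2547 and 4271, 1.63-fold higher. Irgm1 was higher by 0.45, with 3 probes between 0.44 and 0.57, and Ifi47 by 0.37. Iigp1 had nearly equal signals, 274 and 270, and its difference of -0.06 became 0.13 with the authors' scaling. Thus 4 of 5 IRG members were higher, with a median of 0.45, where 48% of all genes were higher. Tgtp2, a relative of Tgtp1 outside the list, was higher by 0.76.

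Set side by side, the classes overlapped. The type I class had a median difference of 0.74 (1.67-fold), from -0.21 to 1.86, with 8 of 9 measured genes higher and 3 at least 2-fold. The gamma class had a median of 0.45 (1.37-fold), from -0.37 to 1.04, with 7 of 9 higher and 1 at least 2-fold. Of all measured genes, 48% were higher and 4.76% at least 2-fold higher. The class medians differed by 0.29. The 3 IFIT genes lay above the highest gamma gene and the other 6 type I genes within the range of the gamma class. Without the IFIT family the difference of the medians was 0.15. Of 8 other ways of processing, 5 shift all genes alike or drop no gene of either class and so keep this value. The other 3 gave 0.25 with the mean over probes, 0.28 with quantile normalization and 0.31 with normexp.

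**Figure D3:**
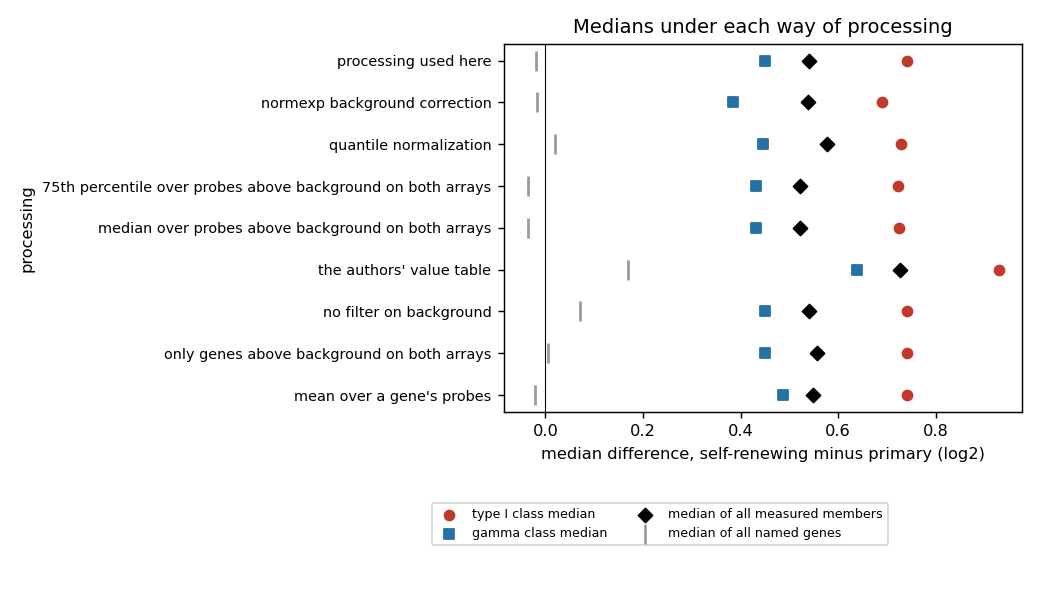
Median difference (log2, self-renewing minus primary, horizontal axis) of the type I class, the gamma class, all measured members and all named genes under each way of processing (rows). The type I median lies between 0.69 and 0.93, the gamma median between 0.38 and 0.64, and with the authors' table all 4 medians lie further right.

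**Figure D4:**
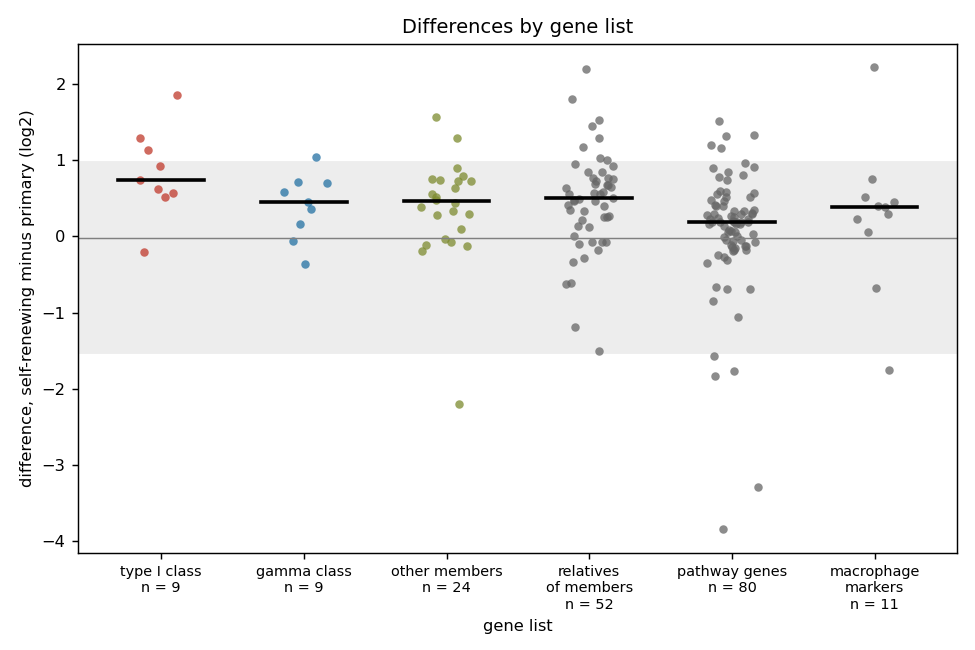
Difference (log2, self-renewing minus primary, vertical axis) of each measured gene by list, with the list's median as a black bar and its number of genes below. The grey band runs from the 5th to the 95th percentile of all 15515 genes, from -1.53 to 0.97, the thin line is their median of -0.02, and genes measured on 1 array only are drawn at their bound. The medians of the member classes lie at 0.74, 0.45 and 0.46, that of the pathway genes at 0.19 and that of the macrophage markers at 0.39.

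Both genes of the ISG15 system were higher. ISG15 is a ubiquitin-like protein that is attached to other proteins and also secreted, and USP18 removes it and dampens signalling at IFNAR2. Isg15 read 7443 in primary and 14264 in self-renewing macrophages, 1.86-fold higher. Usp18 read 1077 and 3294, 2.97-fold higher, the highest difference among members after Ifit3.

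Membrane restriction factors were higher as well. Bst2, the tetherin that holds budding virus at the cell surface, read 10357 in primary and 26170 in self-renewing macrophages, 2.46-fold higher. Ifitm3, which blocks fusion of virus with endosomes, read 30006 and 51497, 1.67-fold higher. Both genes were bright on both arrays, and no spot on either array was saturated.

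The RNA sensors showed smaller differences. Ddx58, which encodes the RNA helicase RIG-I, read 3156 and 5366, 1.65-fold higher, with its 4 probes from 0.72 to 1.19. Dhx58, encoding the regulator LGP2, was higher by 0.52, Ifih1, encoding the sensor MDA5, by 0.39 and Eif2ak2, encoding the kinase PKR, by 0.29. Zbp1, a sensor of left-handed nucleic acids that triggers necroptosis, differed by -0.13, with the authors' scaling by 0.06. The median of these 5 genes was 0.39.

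The enzymes that act on nucleotides and RNA differed little. Rsad2, encoding viperin, which makes a chain-terminating nucleotide, read 865 in primary and 845 in self-renewing macrophages, a difference of -0.07 and with the authors' scaling 0.11. Its neighbour Cmpk2, a nucleotide kinase, differed by -0.03, or 0.16 with the authors' scaling. Samhd1, which depletes nucleotides needed for reverse transcription, differed by 0.09, with its 3 probes between -0.26 and 0.09 and their mean at -0.13. Isg20, an exonuclease, differed by -0.19, with its other probe at -0.34. The 4 genes had a median of -0.05. The Rsad2 promoter printed above holds 1 ISRE core.

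Of the remaining members, those of the PARP family and their partner Dtx3l were all somewhat higher. Parp14 was higher by 0.56, Dtx3l by 0.34 and Parp9 by 0.29. The ubiquitin ligase Trim30a was higher by 0.64, whereas Trim25, which acts on RIG-I, differed by -0.11 in its brighter probe, -1.08 in the other and 0.08 with the authors' scaling. Ifi204, a DNA-binding protein of the PYHIN family, was higher by 0.48. Rtp4 was higher by 0.79, the pro-apoptotic Xaf1 by 0.76 and Ifi35 by 0.73, with all probes of Xaf1 and Ifi35 higher. Ifi27l2a was higher by 0.44 in its brighter probe, while its other probe gave -0.23.

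Ifi44 had the largest difference toward lower signal among the members. Its intensity was 58.7 in primary macrophages and 5.81 in self-renewing macrophages, where it was not well above background. Against the lowest signal well above background, it was at least 4.59-fold lower. With normexp background correction the difference came to -0.65. Ifi44 encodes an inducible protein of the same program.

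Agreement between probes could be read for 14 members with several probes above background on both arrays. In 7 of these all probes were higher, in 5 all were lower, and in 2, Samhd1 and Ifi27l2a, the probes gave both signs. The count of 5 depends on the scaling. With that of the authors the brightest probes of Zbp1, Rsad2 and Trim25 read 0.06, 0.11 and 0.08. The members that were at least 2-fold higher had 1 probe each, so this reading does not reach them.

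Differences were also set beside the promoter letters. The 20 measured members with an ISRE core had a median difference of 0.71 and 18 were higher, 4 of them at least 2-fold. The 12 with a promoter entry but no ISRE core had a median of 0.21, with 7 higher and 1, Ifit2, at least 2-fold. Of all measured genes, 48% were higher and 4.76% at least 2-fold higher. With the GAS core the median was 0.61 over 12 members, and without it 0.58 over 20. Ranges overlapped widely, from -0.37 to 1.86 with an ISRE core and from -2.20 to 1.14 without. The absence of a match says only that these letters are not in this window.

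Most of the families lie in clusters, which allows a comparison of the members with genes beside them. In the IFIT cluster on chromosome 19, 6 genes were measured from the outermost member to the other. Their median was 1.30, and 5 were at least 2-fold higher, against 4.76% of all genes. Of the 5 measured genes on each side, 9 were lower, where 52% of all genes were, and 1 was higher, with a median of -0.49. The exception was Fas, the death receptor, at 1.34, while Ch25h, which makes an antiviral oxysterol and is itself inducible by interferon, was bounded at -4.92. The adjacent lysosomal lipase gene Lipa differed by -0.07 and Acta2 by -0.14, values that change sign with the authors' scaling. Pank1, on the far side, differed by -0.88. In the OAS cluster on chromosome 5 the median was 0.62 for 7 genes inside and -0.01 for the flanks. On chromosome 11, Igtp and Irgm2 had a median of 0.87 and their flanks -0.13, and the cluster from Irgm1 to Ifi47 0.44 against 0.02. The flanks of Igtp and Irgm2 include the IRG relative Gm12250, at 0.13, and those of the OAS cluster the OAS relative Oas1d, at 0.27. In the GBP cluster on chromosome 3 the values were 0.37 and 0.05. For Rsad2 and Cmpk2 on chromosome 12 they were -0.05 and -0.21, so that these lay near their neighbours. The clusters were chosen after values were seen.

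**Figure D5:**
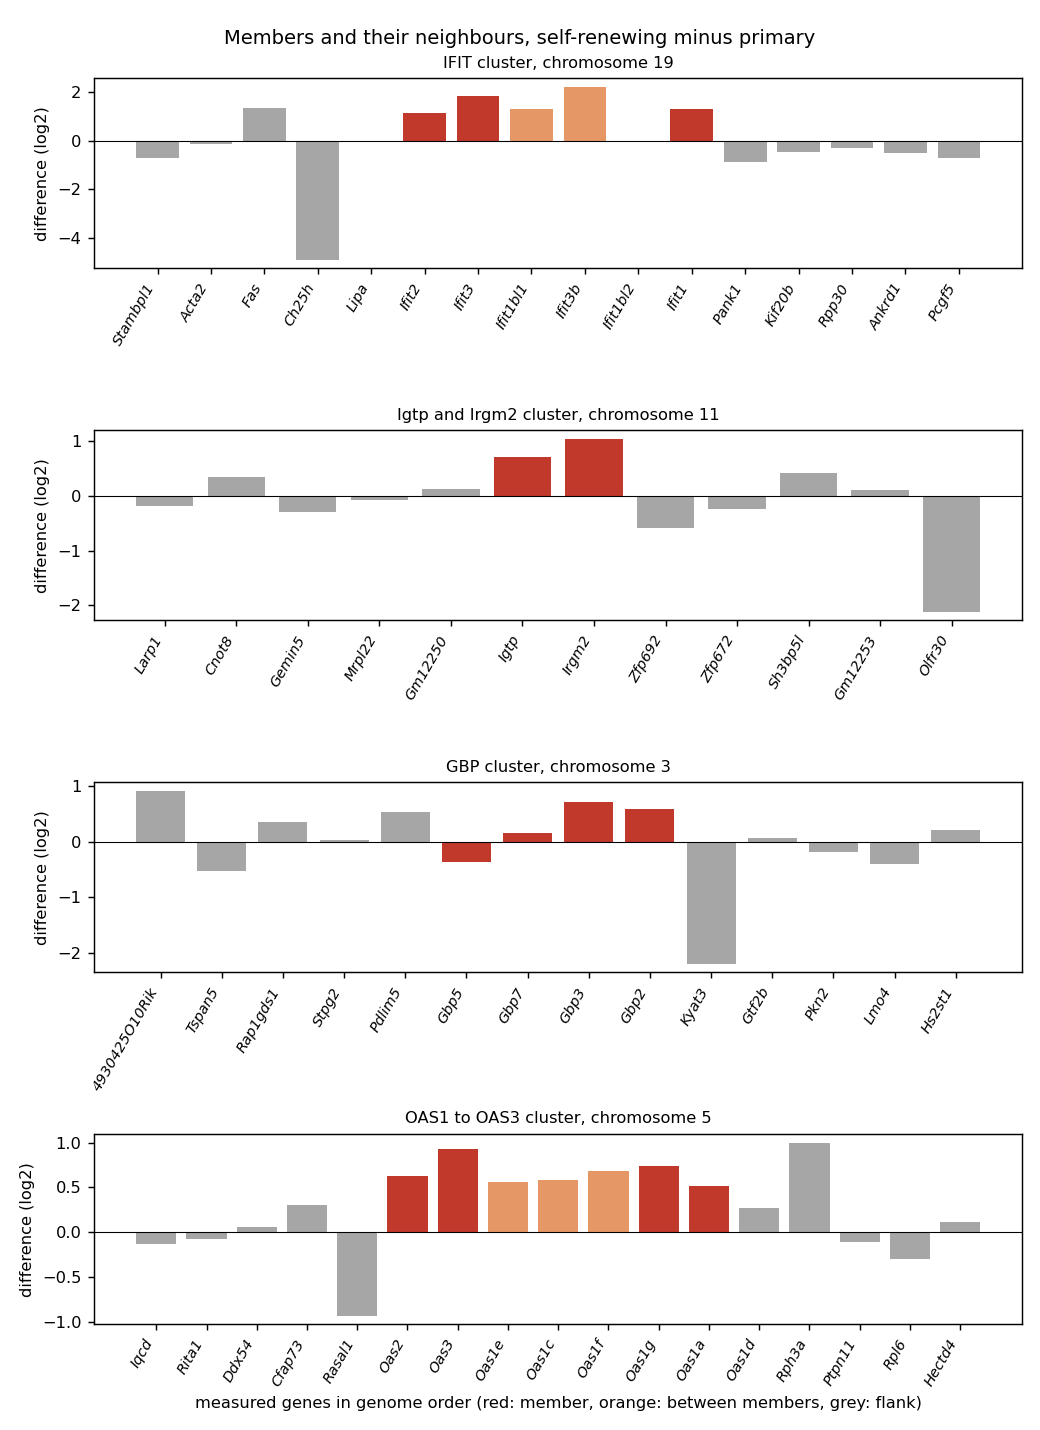
Difference (log2, self-renewing minus primary, vertical axis, scaled separately in each panel) of measured genes in genome order for 4 clusters, with members in red, genes between members in orange and 5 measured genes on each side in grey. Genes measured on 1 array only, such as Ch25h, are drawn at their bound. Oas1d, an OAS relative, and Gm12250, an IRG relative, fall among the flanking genes. The IFIT bars reach 2.20 between flanking bars that are mostly below 0.

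The relatives of the members were listed by family. Of 69 genes, 52 were measured, 41 of them higher and 21 at least 1.5-fold higher, where 48% and 10.9% of all genes were. At least 2-fold higher were 7 (13.5%), against 4.76% of all genes. At least 2-fold lower were 2, where 8.38% of all genes were. Their median was 0.50, close to the 0.54 of the members. Among TRIM relatives all 9 measured were higher, with Trim30b highest at 1.81, at intensities of 47.2 in primary and 170 in self-renewing macrophages. Of the relatives at least 2-fold higher, Gbp9 (29.1 and 86.6) and Ifit1bl1 (35.7 and 90.1) were also dim, where ratios are least certain. The rest of the 7, Ifit3b, Ddx60, Phf11c and Ifi205, were less dim, with primary intensities from 151 (Ifit3b) to 1789 (Ifi205). Ddx60, a helicase that assists RIG-I, was higher by 1.45, Ifi205 of the PYHIN family by 1.17 and Phf11c by 1.02. Lower were Ifi209, another PYHIN gene, at -1.19, and Slfn4, a Schlafen gene of myeloid cells, which was not well above background in self-renewing macrophages and at least 2.84-fold lower. The PYHIN family had relatives at least 2-fold different in both directions.

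The pathway list holds ligands, receptors, signalling and sensor genes, and interferon targets other than the effectors. Of its 92 genes, 80 were measured, 53 higher and 27 lower, with a median of 0.19. Among all genes, 48% were higher and 52% lower. At least 2-fold higher were 5 (6.25%), near the background of 4.76%, and 6 were at least 2-fold lower, where 8.38% of all genes were. For the ligands, Ifnb1 and Ifng were not well above background on either array. Of the 11 ligand genes measured, 10 were lower and 1 higher, from -0.85 to 0.27, and none was 2-fold different. Their median of -0.18 is smaller in size than the 0.19 by which the authors' scaling differs.

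Of the 5 receptor genes measured, 4 were higher, with a median of 0.51, where 48% of all genes were higher. Il10rb, a receptor chain for type III interferons that was named after its value was seen, was higher by 0.59. Ifnar2 was higher by 0.56, although its probes ranged from -0.32 to 0.56, and Ifnar1 differed by -0.05, with probes from -0.05 to 0.47. Ifngr2 was higher by 0.51 and Ifngr1 by 0.34. The kinase genes lay close to 0. Jak1 differed by 0.03, Jak2 by -0.05 and Tyk2 by 0.14. Irf9 was higher by 0.47, with its probes at 0.47 and 0.48, while Stat2 differed by 0.08, with probes from -0.39 to 0.08. Irf7, the inducible amplifier of type I interferon genes, was higher by 0.91, and was named after its value was seen. So were the feedback inhibitors Socs3, higher by 0.96, and Socs1, at -0.69.

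Larger differences were found in chemokine, sensor and antigen presentation genes of the pathway. Cxcl10, a chemokine that attracts T cells, was 2.87-fold higher in self-renewing macrophages. Ikbke, a kinase upstream of IRF3 and IRF7, was higher by 1.31 and the chemokine Ccl12 by 1.16. Tlr3, the endosomal sensor of double-stranded RNA, was 2.29-fold higher and Fas 2.53-fold higher, the other probe of Fas at 0.97. In the other direction, Ciita, the master regulator of MHC class II genes, was 9.79-fold lower, with its other probe at -1.35. Tlr7, the sensor of single-stranded RNA, was 3.56-fold lower, with 3 probes from -2.77 to -0.31. Cd274, encoding PD-L1, was 3.42-fold lower and the chemokine Ccl5 2.98-fold lower. Cgas, the cytosolic DNA sensor, was 2.08-fold lower, and Irf4 was not well above background in self-renewing macrophages and at least 14.4-fold lower there, with its other probe at -1.24. These genes are given because they differed at least 2-fold. Of all interferon targets on the pathway list, 16 of 18 nuclear and proteasome genes and 7 of 11 secreted and surface genes were higher, with medians of 0.24 and 0.31. Among all genes, 48% were higher, or 65.3% with the authors' scaling.

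Markers of cells that could make or carry interferon-stimulated RNA were read beside these values. Of 9 plasmacytoid dendritic cell markers measured, 6 were higher and 3 lower, with a median of 0.09, where 48% of all genes were higher. Their summed intensity was 98215 in primary and 111786 in self-renewing macrophages, of which Siglech alone made up 83903 and 91973. For T and NK cells 6 markers had a median of -0.06 and a summed intensity of 3574 and 3493, of which Cd4 made up 2419 and 2387. For erythroid cells 6 had -0.41, with 928 and 517. For B cells 7 markers had a median of -0.57, with 15637 and 28819, of which Blnk made up 14712 and 28637, while the other 6 summed to 925 and 182. The neutrophil markers summed to 51678 in primary and 2908 in self-renewing macrophages, opposite in direction to most members. The part of other cells in the members' differences was not tested.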

How the data were processed

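RNA of 1 culture of each cell type was measured on 1 Agilent array each. The files deposited by the authors are scanner output from Agilent Feature Extraction 11.5.1.1, per the file headers, with the intensity of each spot after background subtraction, and a table of the same intensity values multiplied by 1.07 (primary) and 1.19 (self-renewing). How these constants were chosen is not given in the sources used here.

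Control spots were dropped, as were 63 outlier-flagged gene spots per array, and spots of a probe were averaged. Log2 intensity was taken relative to each array's 75th percentile. Probe accessions were matched to gene symbols of GRCm38.p6 RefSeq, which named 32988 of 56598 probes (58.3%). Because the arrays were designed on an older assembly, only promoters are given coordinates. Well above background were 34807 probes in primary and 33095 in self-renewing macrophages. Of 15515 genes measured, 14003 were so on both arrays, 1181 in primary and 331 in self-renewing macrophages only. A gene was read by its brightest probe above background. A gene above background on 1 array has a bound, "at least N-fold", counted from its own signal on the other array or from the lowest signal that is well above background there, whichever is higher.

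Results for some genes are not reported here. Members, lists and thresholds were chosen with earlier results of these data known. The text names members, pathway genes and relatives at least 2-fold different, receptors and signal transducers, cluster neighbours and marker genes. The code that computes folds was tested on simulated data with known folds, which is no test of the members. Alternatives were normexp (offset 50), quantile normalization, the 75th percentile or median over probes above background on both arrays, the authors' table, no background filter, a stricter filter that needs both arrays above background, and averaging a gene's probes. Tools were R 4.3.3 (limma 3.58.1) and Python 3.11.15 (numpy 2.4.6, pandas 2.3.3, matplotlib 3.10.9).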

Additional observations from a re-analysis of the deposited data

How the results depend on the processing

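Under the 8 alternatives the members' median lay between 0.52 and 0.73 (0.54 as reported), that of the type I class between 0.69 and 0.93, and that of the gamma class between 0.38 and 0.64. The members' median minus that of all genes was 0.47 to 0.57. Members at least 2-fold higher numbered 5 with normexp (without Irgm2), 8 with the authors' table and 6 in the others. Members at least 2-fold lower numbered 0 with normexp and 0 with genes above background on both arrays, which leaves out Ifi44 by construction, and 1 in the others. The authors' table shifts all differences by 0.19, which makes 65.3% of all genes higher instead of 48%, 6.67% at least 2-fold and 17.4% at least 1.5-fold higher, and 38 members higher, 26 of them at least 1.5-fold. Of the 8 alternatives, 5 shift all genes alike by less than the SD between probes or change only the background filter. Under these, single values could hardly move. Of 335 values of single members under all 8 alternatives, 331 stayed within that SD. The exceptions were Ifi44 (-0.65 with normexp, -3.38 with no filter), Ifi27l2a (0.10) and Trim25 (-0.60), both with the mean over probes. With no filter, Ifi44 is read by its own signal on both arrays and not by a bound. The mean over probes averages values of 0.44 and -0.23 for Ifi27l2a and of -0.11 and -1.08 for Trim25. Why Ifi44 moved with normexp was not tested. Dim probes near background have the least certain ratios. No paired analysis was possible because the design holds 1 array per group.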

Other observations

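Some families of relatives were described above only in part or not at all. The genes given here were chosen after their values were seen. The Schlafen and IFITM relatives held values on both sides of 0, the Phf11 genes only above 0. Of the Phf11 genes, which lie together and are inducible by interferon, Phf11a was higher in self-renewing macrophages by 0.999, Phf11d by 0.95 and Phf11b by 0.75. Of the Schlafen genes, Slfn8 was higher by 0.57, Slfn2 by 0.56 and Slfn5 by 0.22, while Slfn9 differed by -0.18 and Slfn3 by -0.62. Among IFITM relatives, Ifitm6 was higher by 0.84, Ifitm7 by 0.77 and Ifitm10 by 0.65, while Ifitm5 differed by -0.07 and Ifitm1 by -0.33. Of the macrophage markers, Mertk, a receptor for the uptake of dying cells, was higher by 2.23, and Fcgr1, a receptor for antibodies that is itself inducible by interferon gamma, differed by -1.76.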
